A study of Mus musculus with 12 samples.

Results

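Hippocampal RNA of 6 wild-type male mice was described as a baseline: which genes are abundant, how much RNA of neurons, glia and vessels each sample holds, and which genes differ most and least from animal to animal. These are 6 of the 12 samples of a study whose other 6 carry a conditional deletion of the miR379-410 microRNA cluster in Emx1-positive cells, and no comparison between the genotypes was made. Each library was polyadenylated RNA from the hippocampus of 1 adult animal, and the labels give neither exact age nor strain. Of 33250 genes in the table, 15553 had a mean of at least 1 CPM (counts per 1000000 summed estimated counts of the library), and these are the genes described. They include 13878 protein-coding genes and hold 99.8% of all counts. Animals are called 1 to 6 after their labels, and values listed without an animal run in that order.

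The hippocampus is a folded cortex in which dentate granule neurons project to CA3 pyramidal neurons, which project in turn to CA1. Local GABAergic interneurons, astrocytes, oligodendrocytes, microglia and vessels lie among these neurons. Along its edge, the fimbria, it borders the lateral ventricle, which holds the choroid plexus, a secretory epithelium that makes cerebrospinal fluid, and the ventricle wall is lined by ciliated ependymal cells. The meninges, a sheath of fibroblasts and vessels, reach into the folds around it. A bulk sample therefore reads all of these at the same time, and in bulk RNA fewer cells of a type and less RNA per cell cannot be told apart.

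Library sums ran from 42360624 in animal 2 to 50804084 in animal 4. Libraries stood apart in 3 respects. Choroid plexus genes were highest in animal 1 and lowest in animals 2 and 3. Sparcl1 was nearly missing in animal 3 and reduced in animal 4. A set of genes, most of them annotated as pseudogenes, was read in some animals and not in others. The labels name no batch, litter or day of dissection. The Y-linked gene Ddx3y was read at 42.6 ± 2.59 CPM (SD, n = 6) and the female-specific Xist at no more than 0.142 CPM in any animal, which matches the labelled sex.

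Mitochondrially encoded RNA led the transcriptome. The 13 protein-coding genes of the mitochondrial genome took 6.84 ± 0.390% of counts (SD, n = 6), with the highest share in animal 1 (7.35%) and the lowest in animal 5 (6.34%). The first of them, mt-Co1, a core subunit of cytochrome c oxidase, stood at 20116 ± 1285 CPM. It was followed by mt-Atp6, a subunit of ATP synthase, at 7656 ± 515 CPM, and by mt-Cytb, of respiratory complex III, at 7104 ± 396 CPM. All 13 were within a 2-fold range across animals. The 10 most abundant genes together held 7.32 ± 0.243% of counts and the 100 most abundant 20.2 ± 0.353%, so the bulk of the RNA was spread over many genes of moderate level: 2226 genes reached 100 CPM and 79 reached 1000 CPM.

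Among nuclear genes the order was led by 2 genes annotated as noncoding and by synaptic and metabolic genes. Gm42418 was the highest by CPM, with 3617, 5690, 4256, 5806, 6148 and 6205 CPM, lowest in animals 1 and 3. Which RNA its reads come from was not tested, so its level may not be that of a gene of its own. Meg3, the maternally expressed long noncoding RNA of the Dlk1-Dio3 domain, stood at 4816 ± 468 CPM with its highest value in animal 6 (5596). Camk2a, the alpha subunit of the calcium- and calmodulin-dependent kinase of excitatory synapses, had 4382, 4774, 4673, 4579, 4457 and 4629 CPM. Its coefficient of variation (CV, the SD as a percentage of the mean) was 3.13%, and all animals lay close together. Also near the top were the choroid plexus gene Ttr (transthyretin), the astrocyte glutamate transporter Slc1a2 (2925 ± 171 CPM) and Ncdn, which encodes the neuronal protein neurochondrin (2608 ± 139 CPM). The 25 highest also held the glycolytic enzyme Gapdh, dendrin (Ddn), myelin basic protein (Mbp), the kinesin Kif5a, Snhg11 and Snap25, from 2117 down to 1901 CPM. For Kif5a, animal 5 was high (2320 CPM against 1919 to 2045 in the others) and for Snhg11, animal 3 (2221 CPM against 1810 to 1947).

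Between genes, levels can be compared only per length. On a per-kilobase scale (CPM divided by the length of the union of annotated exons and rescaled so that every library has the same sum), 13 of the 15 highest genes were mitochondrially encoded, 11 of them protein coding and 2 ribosomal RNAs, mt-Rnr1 and mt-Rnr2. The other 2 were Gm42418 and Ttr, with a per-kilobase level of 8522 for Ttr. Of the cell-type genes, Ncdn (2448), Nrgn (neurogranin, a calmodulin-binding postsynaptic protein, 2180), Camk2a (2138) and Apoe (the main lipid carrier of astrocytes, 1863) had per-kilobase levels close to one another. The order by CPM was different, with Nrgn at 910 ± 39.5 CPM.

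Neuronal RNA was high and even. The 15 pan-neuronal genes summed to 7783, 8632, 8698, 8334, 8411 and 8138 CPM, a CV of 4.05%. A range was called wide when the highest animal was at least 2-fold above the lowest, which held for 941 of 15553 genes (6.05%), and a CV was called small at 5% or less, which held for 4481 (28.8%). None of the 15 pan-neuronal genes was wide and 7 had a small CV. Small CVs were more frequent at high levels: of all genes from 100 to 1000 CPM, 51.6% had one and 0.512% were wide. The median level of the 15 was 376 CPM, so they were not more even than genes of that level. Snap25, a membrane fusion protein of the synapse, stood at 1901 CPM (CV 4.47%), the calcium sensor of vesicle release Syt1 at 1416 ± 82.5 CPM, and the neuron-specific enolase Eno2 at 796 ± 25.2 CPM. The nuclear marker Rbfox3 (NeuN) had 244, 247, 252, 252, 249 and 234 CPM. The least even member was Gap43, a growth-cone protein, with its highest value in animal 3 (125 CPM against 93.6 to 103 in the others).

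Glutamatergic genes summed to 11217, 12595, 12124, 12038, 11766 and 12126 CPM (11978 ± 458). The vesicular glutamate transporter Slc17a7 stood at 1428 ± 87.5 CPM and the AMPA receptor subunit Gria1 at 1073 ± 72.1 CPM. The NMDA receptor subunit Grin2b was the most variable of the 13 (642 to 883 CPM, CV 10.4%), lowest in animal 1 and highest in animal 5. No member was wide and 5 had a small CV, at a median level of 750 CPM, beside a small CV for 51.6% of all genes from 100 to 1000 CPM. Animal 1 was the lowest of 6 in both neuronal sums.

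**Figure D1:**
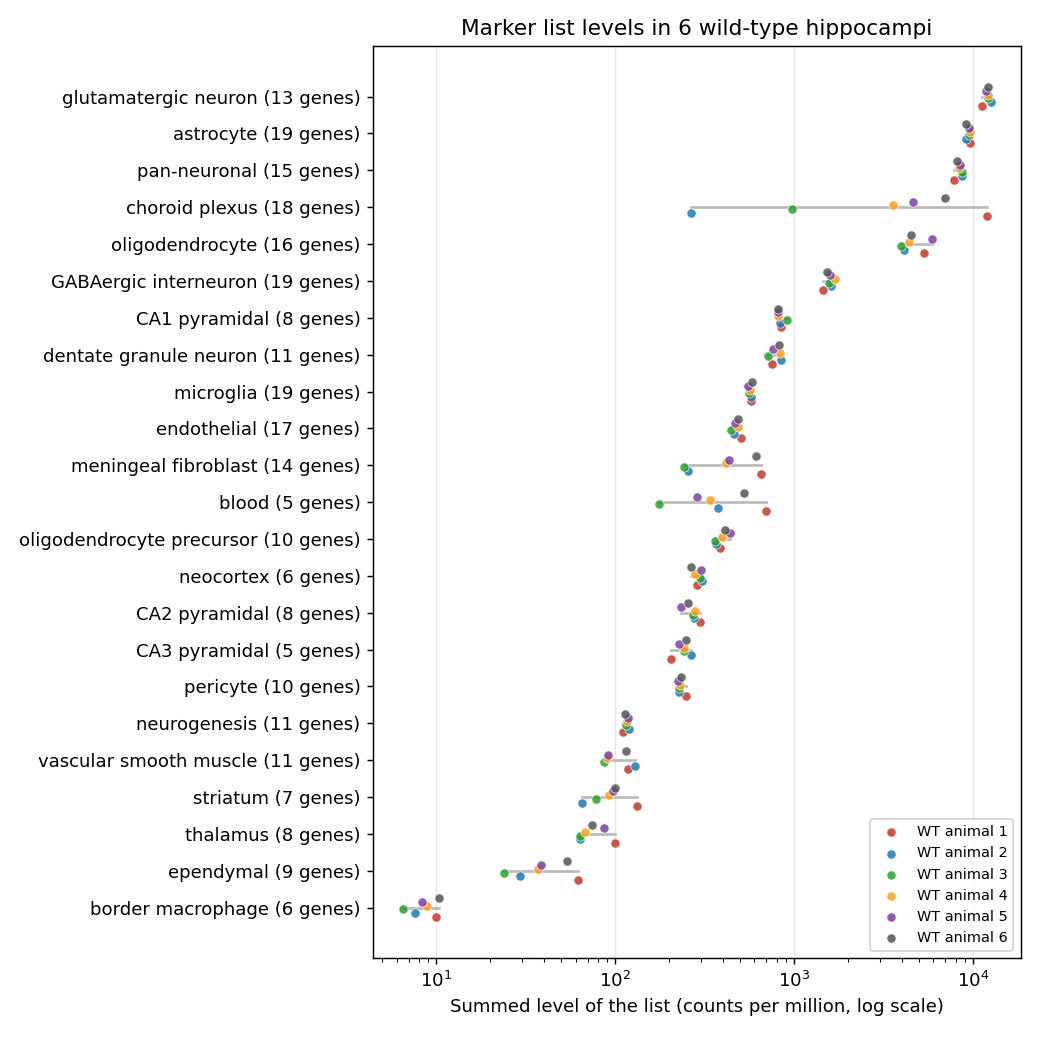
Summed level of 23 marker lists in each of 6 wild-type hippocampi, in CPM on a log scale; each point is 1 animal, each grey bar runs from the lowest to the highest animal, and the number of genes in a list follows its name. Most lists span less than 1.5-fold. The choroid plexus list runs from 266 to 11878 CPM, the meningeal, blood and ependymal lists span 2.60- to 4.00-fold, and the striatal list spans 2.03-fold.

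Genes that mark the hippocampal fields were nearly all read. Their median CV was 9.55% for the dentate gyrus, 13.1% for CA1, 11.7% for CA2 and 11.4% for CA3, beside 5.82% for pan-neuronal genes. The 11 dentate granule genes summed to 750, 842, 711, 838, 766 and 820 CPM. Among them Prox1, the transcription factor that defines granule neurons, had 110, 133, 98.6, 126, 117 and 126 CPM, and the synaptic organiser C1ql2 had 62.2, 84.4, 62.4, 79.2, 61.2 and 71.2 CPM. Both were lower in animals 1, 3 and 5 than in animals 2, 4 and 6. The 8 CA1 genes summed to 839 ± 40.3 CPM, with animal 3 the highest at 917 against 811 to 843 in the others. Mpped1 (243 ± 19.5 CPM), Fibcd1 (169 ± 22.6 CPM) and Wfs1 (157 ± 27.1 CPM) led them. Wfs1, which encodes the endoplasmic reticulum protein wolframin, had 189, 125, 174, 148, 177 and 127 CPM, while Fibcd1 was lowest in animal 5 (128 CPM) and highest in animal 6 (189 CPM), so these CA1 genes did not move together.

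The 8 CA2 genes summed to 269 ± 22.2 CPM, with 7 at 1 CPM or more. Rgs14, a regulator of G-protein signalling concentrated in CA2, gave 106, 101, 95.4, 94.99, 78.9 and 90.9 CPM. Map3k15 was the 1 wide member, 7.51 CPM in animal 1 against 2.69 to 4.59 in the others. The 5 CA3 genes summed to 238 ± 21.2 CPM. The kainate receptor subunit Grik4 stood at 64.3 ± 7.22 CPM, the RNA-binding Elavl2 at 63.0 ± 5.29 CPM, the neuropeptide Y receptor Npy2r at 49.9 ± 6.87 CPM, Bok at 35.9 ± 4.10 CPM and the cadherin Cdh24 at 25.2 ± 3.12 CPM. Animal 1 was lowest for Grik4, Elavl2 and Npy2r.

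The 19 interneuron genes summed to 1571 ± 86.4 CPM, and all were at 1 CPM or more. Gad1, which makes GABA, had 269, 307, 280, 298, 298 and 271 CPM. Markers of single interneuron classes were not equally even. Their CVs included 5.11% for Cck, 7.16% for Npy, 17.6% for Pvalb and 29.6% for Calb2, beside 5.53% for Gad1. The calcium-binding protein Pvalb had 25.5, 15.6, 19.9, 19.5, 20.7 and 16.8 CPM, and Calb2 (calretinin) had 15.1, 33.6, 18.7, 31.8, 22.3 and 26.2 CPM. Calb2 was the only wide member, with animals 1, 3 and 5 below the others, and for Pvalb the same animals were above the others. Of the neuropeptides, Cck was at 168 ± 8.60 CPM, Sst at 136 ± 14.7 CPM, Npy at 32.0 ± 2.29 CPM and the enkephalin precursor Penk at 25.3 ± 4.28 CPM. The neuropeptide list as a whole summed to 410 ± 24.3 CPM, and Nts (neurotensin) was its 1 wide member at 1 CPM or more.

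Genes of neurogenesis, which continues in the dentate gyrus, were low and even in sum, 115 ± 3.28 CPM for 11 genes of which 9 reached 1 CPM. Dcx, a microtubule protein of immature neurons, had 18.3, 24.8, 24.0, 27.5, 27.7 and 20.8 CPM, and the neural progenitor filament Nes ran from 11.1 to 12.3 CPM. The proliferation marker Mki67 was at 1.43 ± 0.220 CPM, near the lower limit.

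Markers of neighbouring regions were mostly low. The 5 hypothalamic peptide genes, among them Pomc (0.579 ± 0.157 CPM) and the vasopressin gene Avp (0.0634 ± 0.0494 CPM), were all under 1 CPM. The thalamic list summed to 75.8 ± 14.3 CPM and the neocortical list to 289 ± 15.6 CPM, of which Bcl11b, a gene that hippocampal neurons also express, made up 183 ± 13.1 CPM. The striatal list summed to 133, 65.2, 78.5, 92.8, 97.3 and 99.2 CPM, a 2.03-fold range. Of its 7 genes, 3 were wide, 2 of them still without animal 1, at a median level of 4.19 CPM. Of all genes from 3 to 10 CPM, 9.36% were wide. In the thalamic list, Slc17a6, the glutamate transporter of thalamic and other subcortical neurons, had 20.7, 7.48, 16.4, 10.1, 25.7 and 8.13 CPM. Cux2, of upper cortical layers, had 41.9, 29.4, 48.2, 41.5, 62.0 and 31.7 CPM. Both were high in animals 1, 3 and 5, and lower in animals 2, 4 and 6, an order that held for 1 of 6 thalamic and 1 of 6 neocortical genes at 1 CPM or more.

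The same order of animals, 1, 3 and 5 each above 2, 4 and 6, was found for 943 of 15553 genes (6.06%), and the reverse order for 702 (4.51%). Both shares are near what any fixed split of the animals, 3 above 3, gives by chance, so they do not show a grouping of the animals. Among the 941 wide genes, 58 had the first order and 41 the reverse. Genes that followed the first order with a wide range include Tshz2, at 99.5, 38.4, 80.8, 57.6, 114 and 39.9 CPM, Rxfp1 (the relaxin receptor), at 23.1, 10.6, 28.5, 15.2, 29.1 and 9.66 CPM, and the synaptotagmin Syt2, at 44.4, 20.8, 33.5, 26.6, 54.1 and 25.8 CPM, all chosen after their values were seen. In the reverse direction were 3 of 11 dentate genes and 3 of 5 CA3 genes, and none of either list was in the first direction. The CA1 list was mixed, with 2 of 8 genes in the first direction and 1 in the reverse. The interneuron list was also mixed, with 1 and 4 of 19. Of the 16 clock genes, 3 were in the first direction and none in the reverse. No label separates these animals.

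The sum of the 19 astrocyte genes was among the most even, at 9404 ± 248 CPM (CV 2.64%). Slc1a2 and Glul, which take up glutamate and turn it into glutamine, made up a large part of it. Glul had 1554, 1463, 1546, 1569, 1552 and 1456 CPM, and the lipid enzyme Acsbg1 had 115, 116, 118, 118, 115 and 112 CPM. Clusterin (Clu), at 954, 685, 710, 754, 787 and 820 CPM, was highest in animal 1, and the transcription factor Sox9 (34.5 ± 4.67 CPM) was also highest there, at 41.5 CPM. No astrocyte gene was wide and 6 had a small CV, at a median level of 164 CPM, beside a small CV for 51.6% of all genes from 100 to 1000 CPM.

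Microglial RNA was the most even of the cell-type sums plotted, 573, 574, 559, 569, 555 and 581 CPM (CV 1.70%). Csf1r, the receptor for the growth factor that microglia need, had 88.9, 90.1, 86.7, 89.2, 89.1 and 88.5 CPM. Its CV was 1.304%, beside medians of 5.07% for all genes from 30 to 100 CPM and 2.00% that counting alone would give them. The naming rule takes the least variable members of each list, so low CVs among named genes follow partly from it. The less even members were the adaptor Tyrobp (8.64 ± 1.03 CPM), the receptor Gpr34 (8.26 ± 0.935 CPM) and Aif1 (Iba1, 2.70 ± 0.286 CPM), all at a low level. None of 19 was wide and 9 had a small CV, at a median level of 27.0 CPM, beside a small CV for 28.1% of all genes from 10 to 30 CPM. Macrophages of the brain borders, by contrast, left little RNA: their 6 genes summed to 8.58 ± 1.45 CPM and only 3 reached 1 CPM, among them Mrc1 at 3.24 ± 0.575 CPM.

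Myelin was the exception among the glia. The 16 oligodendrocyte genes summed to 5312, 4119, 3927, 4395, 5889 and 4513 CPM, highest in animals 5 and 1, a CV of 16.1%. Mbp had 2358, 1808, 1702, 1864, 2588 and 1959 CPM. Every one of the 16 genes stayed within a 2-fold range, but none had a small CV, and the median CV of the list was 16.5%. Their median level was 83.2 CPM. Of all genes from 30 to 100 CPM, 1.15% were wide and 48.8% had a small CV. The precursor list ran from 361 to 436 CPM in sum, a CV of 7.10%. Its receptor gene Pdgfra stood at 51.1 ± 4.30 CPM and the lineage factor Olig1 at 77.9 ± 3.94 CPM, while Bcas1, which marks cells starting to myelinate, had its 2 highest values in animals 5 (140 CPM) and 1 (124 CPM), as myelin genes did.

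The sums of the vessel wall lists were even except for smooth muscle. Endothelial genes (17) summed to 475 ± 21.3 CPM, with the glucose transporter Slc2a1 (77.9 ± 6.00 CPM) and the VEGF receptor Flt1 (73.2 ± 2.95 CPM) in the lead. Emcn (endomucin, of veins and capillaries) was the 1 wide member, 8.12 CPM in animal 1 against 3.90 to 6.00 in the others. Pericyte genes (10) summed to 231 ± 8.62 CPM, with animal 1 the highest at 248 against 225 to 232. Single members were less even than these sums. A small CV was found for 2 of 17 endothelial genes (median CV 7.69%) and for no pericyte gene (9.74%). Their median levels were 22.7 and 10.8 CPM. Of all genes from 10 to 30 CPM, 28.1% had a small CV, 3.63% were wide and the median CV was 6.62%. Smooth muscle genes (11) summed to 118, 129, 86.6, 90.0, 91.3 and 115 CPM, with animals 1, 2 and 6 above the others. The myosin Myh11 had 20.8, 28.0, 14.7, 13.7, 15.4 and 19.3 CPM and the actin Acta2 had 19.4, 24.1, 13.1, 14.5, 13.9 and 21.8 CPM. These were highest in animal 2, which was among the lowest for choroid plexus.

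Over all 15553 genes, animals were close. The median CV was 7.18% (quartiles 4.68% and 12.4%), against a median of 3.15% that counting alone would give. The median fold between 2 animals was 1.05 to 1.09 over the 15 pairs. A gene was said to have 1 animal apart when its gap to the next passed Dixon's criterion, which held for 881 of 15553 genes (5.66%) and for 595 of the 10310 at 10 CPM or more (5.77%). The spread fell with level up to 1000 CPM: the median CV was 16.8% from 1 to 3 CPM, 6.62% from 10 to 30 CPM and 4.91% from 100 to 1000 CPM, and wide ranges fell from 19.99% of genes to 3.63% and 0.512%. Above 1000 CPM the median CV was higher again, at 5.71%, and 3 of 79 genes were wide (3.80%), namely Ttr, Enpp2 and the nuclear noncoding RNA Malat1, which had 1056, 1020, 1191, 1827, 2337 and 1444 CPM. Of 66 wide genes named here, 48 stayed wide with any single animal left out. The others fell under 2-fold without animal 1 (Arc, Calb2, Dbp, Egr2, Emcn, Fos, Map3k15, Npas4 and Nts), animal 2 (Cux2 and Myh11), animal 3 (BC005561, Emcn, Gm26703, Lum and Rpl14-ps1), animal 4 (Arc, Dcn and Myh11), animal 5 (Cux2, Dcn and Malat1) or animal 6 (Dbp and Ifit1). At 10 CPM or more, 204 of 10310 genes were wide (1.98%) and 4275 had a small CV (41.5%).

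**Figure D2:**
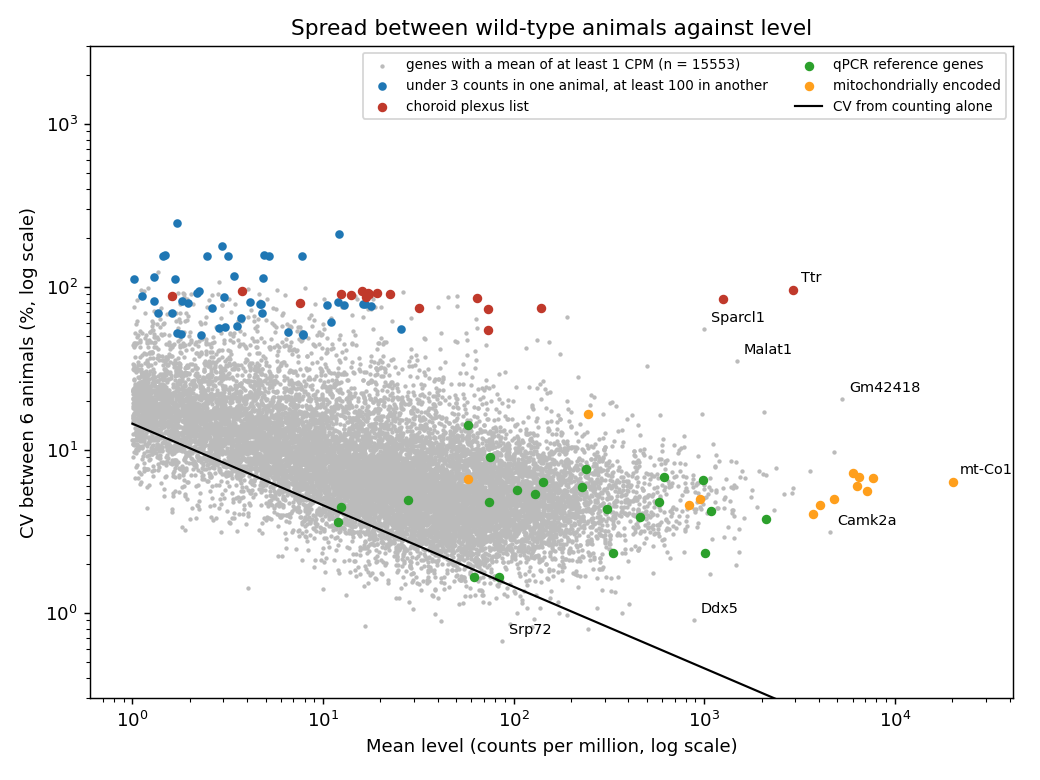
Coefficient of variation between the 6 animals against mean level for 15553 genes, both axes logarithmic; the line is the CV that counting alone would give, and coloured points mark 4 sets of genes. Choroid plexus genes lie between 54.7% and 96.2% at all levels, qPCR reference genes between 1.65% and 14.3%, and Srp72 at 0.673% lies under the line.

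Of the 34 lists, that of the choroid plexus had the widest range. All 18 genes were wide, as they were with any 1 animal left out, the median CV was 88.7%, and the sum ran 11878, 266, 974, 3586, 4611 and 7002 CPM, a 44.6-fold range. Ttr, the thyroxine carrier that the plexus secretes, had 7705, 49.2, 493, 2213, 2721 and 4416 CPM, so in animal 1 only mt-Co1 and mt-Atp6 were more abundant by CPM, while in animal 2 its level was moderate. Enpp2 (autotaxin, which makes lysophosphatidic acid) had 3014, 130, 324, 963, 1329 and 1772 CPM. The order of animals was the same for both: animal 1 highest, 6, 5 and 4 next, 3 and 2 lowest.

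The remaining members followed the same order, with 1 exception. Kl (klotho, a co-receptor for FGF23) had 304, 28.8, 47.4, 105, 143 and 209 CPM, and the angiotensin-converting enzyme Ace had 157, 13.4, 25.6, 59.4, 79.0 and 107 CPM. Genes of ion and water transport had wide ranges. The bicarbonate transporter Slc4a5 had 55.0, 0.354, 3.71, 17.6, 24.9 and 33.4 CPM, the potassium channel subunit Kcne2 had 40.9, 0.496, 2.43, 12.1, 15.5 and 24.7 CPM, and the water channel Aqp1 had 34.5, 0.685, 2.78, 11.04, 13.7 and 21.0 CPM. Folr1 (the folate receptor), Otx2 (a homeobox factor of the plexus) and the tight-junction protein Cldn2 fell below 1 CPM in animal 2. Of the 18, 17 had animal 1 highest and animals 2 and 3 lowest, an order found in 1145 of 15553 genes (7.36%). The exception was Prlr, the prolactin receptor, with 58.1, 4.28, 9.34, 24.6, 35.9 and 59.4 CPM, where animal 6 was a little above animal 1.

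The same order marked genes outside the list. F5 (coagulation factor V) had 116, 2.36, 9.63, 32.6, 57.1 and 83.6 CPM, and Mfrp, Trpv4, Col8a1, Wdr86 and 1500015O10Rik were also among the 20 most variable genes at 10 CPM or more. Of these 20, all but Gm10925, Srp54b and Pgk1-rs7 had that order. Among the 941 wide genes, 371 had it (39.4%). Animal 1 was the highest of 6 for 457 of the 941 and animals 2 and 3 the lowest for 368 and 315. Without animals 2 and 3 the wide genes numbered 497, and without animal 1 they numbered 730.

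**Figure D3:**
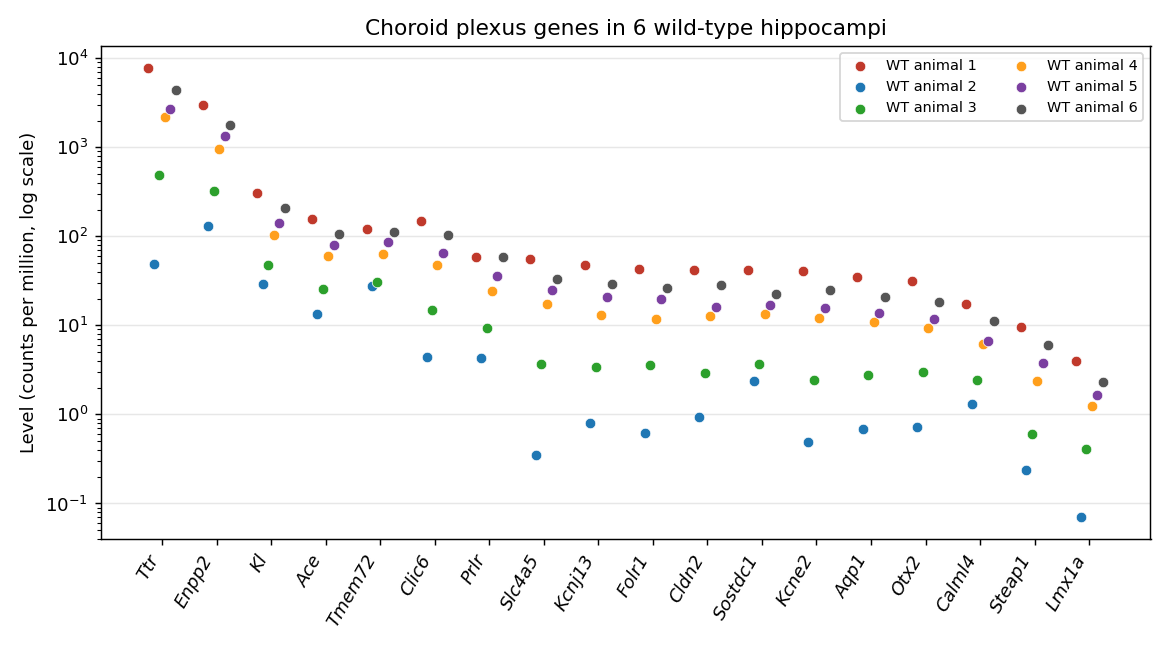
Level of the 18 choroid plexus genes in each wild-type animal, in CPM on a log scale. Genes are ordered by their mean level over the animals, and colours mark the animals. Animal 1 is highest or nearly so for every gene, animals 6, 5 and 4 follow, and animals 2 and 3 are lowest, a 44.6-fold range in the sum.

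Start-site sequence from RefSeq (GRCm38.p6) was searched for a TATA box, the site where TATA-binding protein joins the transcription machinery. The 4 genes printed below were picked by hand among genes that varied and held the box. They do not stand for variable genes in general. In the 250 bases before to 50 after the start, TATAAA on either strand occurred in 1039 of 11349 genes that had an entry (9.15%), and on the strand of the gene at 45 to 10 bases before the start in 163 (1.44%). Since 73.0% of the genes described had an entry, shares between groups of genes were not compared. The 30 bases from 40 to 11 before the start of 4 genes with the box are given 5′ to 3′ on the gene's strand, with TATAAA in capitals, because they show the box in 2 plexus genes, 1 blood gene and 1 activity gene that vary. They lie, in the order printed, at chrX:139800768-139800797 (plus strand), chr1:87394740-87394769 (minus), chr7:103813934-103813963 (minus) and chr12:85473850-85473879 (plus). A match is a description of sequence only.
Cldn2: aaaaaTATAAAacccaccaaacgttttttg
Kcnj13: ctcacggacatTATAAAcacaggaatgtaa
Hbb-bt: cagcattgggtaTATAAAgctgagcagggt
Fos: gcgcttcTATAAAggcgccagctgaggcgc

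Genes of tissues next to the plexus shared its order in part. Meningeal fibroblast genes summed to 653, 255, 242, 416, 433 and 613 CPM, and 9 of 14 were wide, 3 of them still without animal 3. Igf2, a growth factor of meninges and plexus, had 369, 56.0, 76.2, 142, 200 and 299 CPM and the sulfate transporter Slc13a4 had 57.2, 8.33, 11.1, 24.3, 29.9 and 42.1 CPM, both in the plexus order. The fibrillar collagens and lumican (Lum) were wide but less so: Lum had 6.75, 4.56, 2.21, 4.25, 4.15 and 5.67 CPM. Decorin (Dcn) and Col6a1 followed another order, at 33.1, 40.3, 35.9, 56.7, 26.4 and 48.3 CPM for Dcn, highest in animal 4. Ependymal genes summed to 62.2, 29.4, 23.9, 37.3, 38.3 and 53.9 CPM and 6 of 9 were wide, among them Foxj1, the master factor of motile cilia, with 27.3, 12.7, 10.4, 15.6, 16.1 and 24.6 CPM.

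Blood and interferon-related genes were also uneven. The 5 blood genes were all wide, with a sum of 700, 376, 175, 339, 287 and 525 CPM. The beta-globin Hbb-bs had 234, 130, 58.9, 109, 93.5 and 174 CPM, and the haem enzyme of red cells Alas2 had 8.92, 4.74, 1.99, 4.49, 4.05 and 7.79 CPM. Animal 1 was highest and animal 3 lowest for each, but animal 2 stood in the middle, so the order differed from that of the plexus. The interferon and MHC class I list summed to 211, 135, 128, 155, 141 and 192 CPM, with 4 of 9 genes wide, 2 of them still without animal 1. The restriction factor Bst2 had 5.78, 1.70, 2.23, 2.58, 2.26 and 5.06 CPM and Ifit1 had 2.10, 1.28, 1.55, 1.72, 1.52 and 3.70 CPM, with animals 1 and 6 the 2 highest for both.

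Immediate early genes, which neuronal activity induces, were highest in sum in animal 1. The 21 of them summed to 1221, 1074, 1017, 915, 1031 and 1039 CPM. Of the members, 12 were highest in animal 1 and 12 were lowest in animal 4, and the others had other orders. The transcription factor Egr3 was highest in animal 5, at 132 CPM against 111 in animal 1. The 4 wide members were Fos, Npas4, Arc and Egr2, and without animal 1 none of the 4 was wide. Fos had 18.2, 9.40, 9.45, 6.18, 8.59 and 10.6 CPM, Npas4 had 24.2, 12.7, 18.2, 9.21, 10.5 and 17.5 CPM and the synaptic gene Arc had 212, 132, 138, 101, 122 and 148 CPM. In these 3 animal 1 was highest and animal 4 lowest. Bdnf, by contrast, had a small CV of 4.33%. Of the clock genes, Dbp was the 1 wide member, at 48.6, 48.1, 40.6, 37.3, 38.7 and 24.2 CPM, lowest in animal 6, and Tef was even at 385 ± 10.7 CPM. In the glucocorticoid list Hif3a was wide, at 4.98, 4.84, 11.5, 9.84, 5.67 and 5.24 CPM, with animals 3 and 4 above the rest. Fkbp5, a glucocorticoid-induced chaperone, was at 60.1 ± 5.21 CPM. In the heat shock list animal 6 stood apart, at 3773 CPM in sum against 3191 to 3404 in the others, with Hspa8 at 1845 CPM and Hsph1 at 357 CPM there.

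Sparcl1 (hevin, a matrix protein that astrocytes secrete and that promotes synapse formation) departed in 2 animals. It had 1294, 1305, 0.672, 702, 1431 and 1237 CPM, from 63118, 55278, 31, 35662, 69623 and 60826 counts. The level was 0.000531 of the median in animal 3 and 0.555 of it in animal 4, while the other animals ran from 1237 to 1431 CPM. The gene lies at chr5:104079111-104113733 on the minus strand. The astrocyte sum was not low in these animals (9494 CPM in animal 3 and 9662 in animal 4). Sparc, of the same family and chosen after its values were seen, stood at 228 ± 18.3 CPM.

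Some genes nearby on chromosome 5, chosen after their values were seen, also stood out in animal 3. Within 500 kb there were 12 genes at 1 CPM or more, Sparcl1 included. Dmp1, an acidic matrix phosphoprotein, had 4.68, 5.29, 23.0, 10.8, 5.57 and 5.20 CPM, and the dehydrogenase Hsd17b11 had 27.0, 28.9, 47.3, 38.7, 29.0 and 26.2 CPM. In both, animal 3 was highest and animal 4 next. Gm26703, an antisense gene that overlaps Sparcl1, had 3.02, 3.45, 0.622, 1.97, 3.47 and 2.98 CPM, so its animals fell in the order of Sparcl1. Since no source used here states the strand setting of the authors' quantification, reads of the pair cannot be told apart. Of the 12 genes, 4 had animal 3 outermost and animal 4 next with a range of 1.5-fold or more, an order found in 161 of 15553 genes (1.04%). The 4 are Sparcl1, from which the order was taken, the overlapping Gm26703, Dmp1 and Hsd17b11. Their share of the 12 is therefore a description and no independent support for the order. BC005561, farther away, was lowest in animal 3 alone (3.92 CPM against 6.85 to 10.6 in the others), and Klhl8, Aff1, Pkd2 and Ptpn13 were between 0.881 and 1.07 of their medians in both animals.

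**Figure D4:**
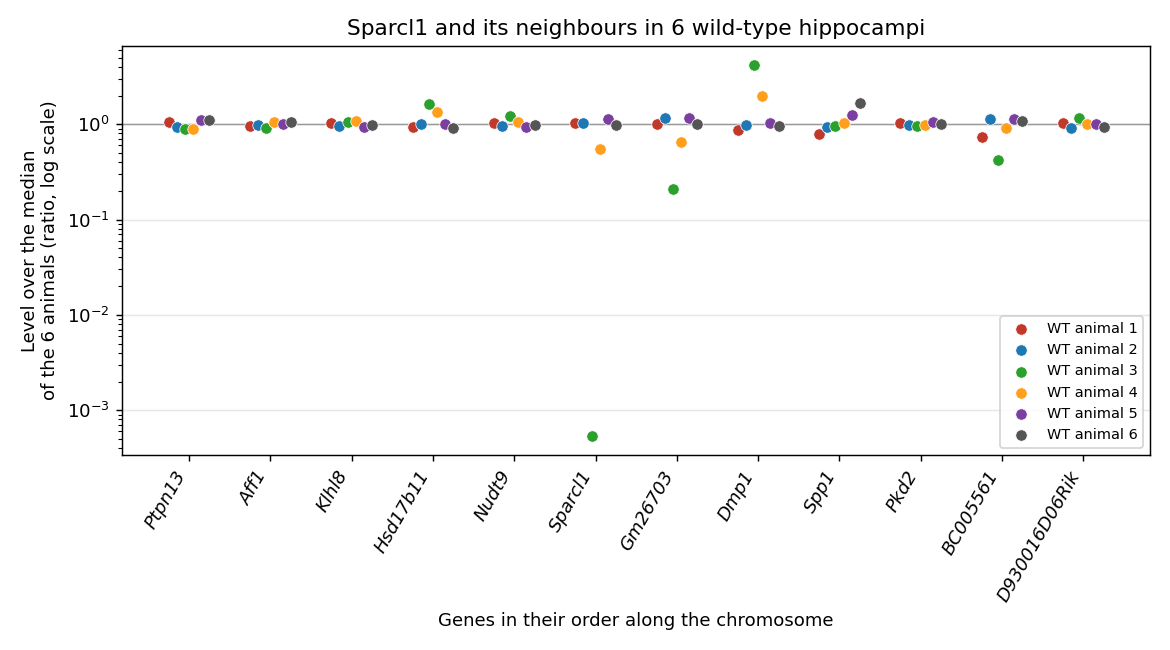
Level of Sparcl1 and the other genes within 500 kb, each divided by its median over the 6 animals, on a log scale and in chromosomal order; colours mark the animals. Sparcl1 falls to 0.000531 of its median in animal 3 and 0.555 in animal 4, Dmp1 rises to 4.23 and 1.99 of its median in the same animals, and most neighbours stay near 1.

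Many of the most variable genes were annotated as pseudogenes. For 47 genes the estimate was under 3 counts in at least 1 animal and at least 100 counts in another, and 34 of them were pseudogenes (72.3%, against 1.84% of all genes described). Rps23-ps1, a processed copy of the ribosomal protein gene Rps23, had 24.7 CPM in animal 2 and 21.9 in animal 3, and was at 0 in the others. Rps16-ps2, with 16.2 and 13.3 CPM, and Nudc-ps1, with 4.83 and 4.04 CPM, were read in the same 2 animals. Rpl14-ps1 was read only in animal 3, at 10.3 CPM. Estimated counts assign reads that fit several copies by a model, so each of these values is uncertain.

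The source genes, chosen after the copies were seen, were read beside them. Rps23 had 146, 104, 109, 132, 120 and 123 CPM, and was lowest in the 2 animals where its copy was read. Adding the copy to the source gene took the CV from 12.6% to 6.93%. Rps16 went from 12.99% to 8.14%, Kansl2 from 9.18% to 4.91% and Mrpl23 from 13.8% to 7.23%. For Rpl15 and Sms the sum was less even than the source gene, 5.56% against 2.95% and 4.89% against 4.23%. These are 6 of the 8 pairs whose names link copy and source.

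**Figure D5:**
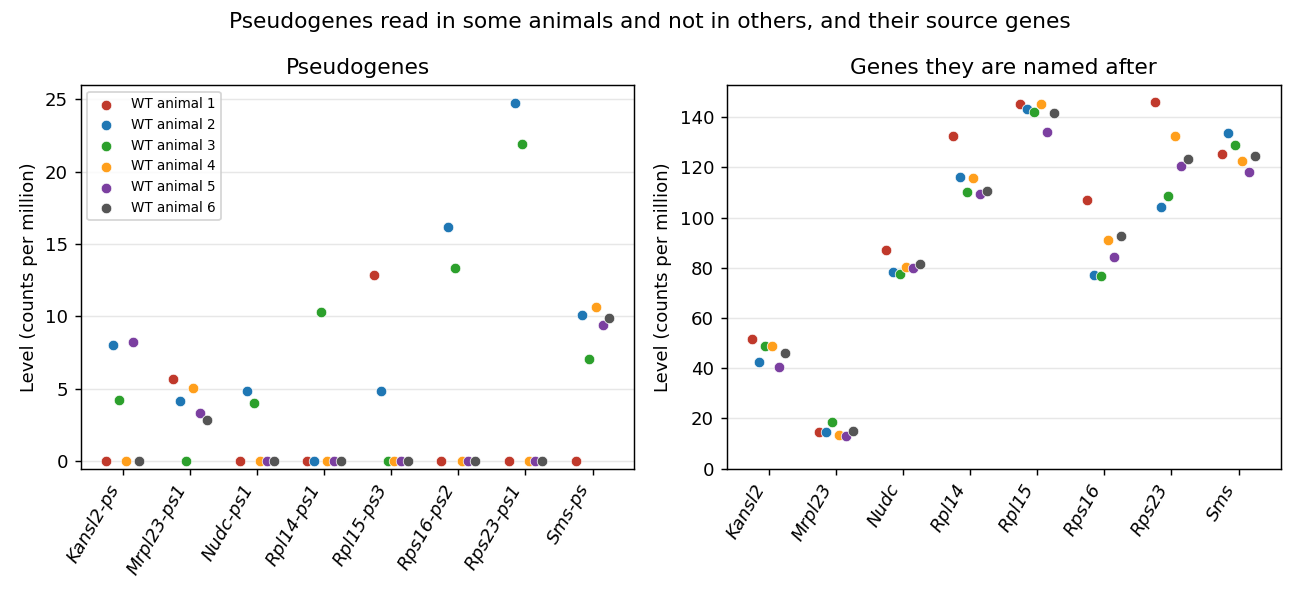
Level of 8 pseudogenes (left) and of the genes they are named after (right) in each wild-type animal, in CPM from 0; colours mark the animals. Several pseudogenes are at 0 in some animals and between 4 and 25 CPM in others, and Rps23 and Rps16 are lowest in animals 2 and 3, where their copies are read.

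Several of the genes read only in some animals lie on chromosome 4 and were read in the same animals. Gm10600, at 0.0510, 18.7, 0, 19.2, 19.9 and 19.1 CPM, was near 0 in animals 1 and 3 alone. Gm5859, at 0.0348, 15.7, 0, 16.8, 15.8 and 14.7 CPM, and Gm21541 had the same animals near 0. Gm10600 and Gm5859 are neighbours, Gm10600 at chr4:42240639-42242685 and Gm5859 at chr4:42236859-42239182. On chromosome 12, Srp54b, 1 of several near-identical genes for a signal recognition particle subunit, had 35.2, 36.8, 21.4, 0.125, 5.66 and 10.7 CPM. The nearby Fam177a, chosen after its values were seen, at 18.6, 24.2, 10.9, 5.94, 14.6 and 10.97 CPM, was also lowest in animal 4.

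Principal components of log2(CPM + 1) gathered these patterns. The first took 49.0% of the variance and ordered the animals 1, 6, 5, 4, 3 and 2, with scores of 21.8, 12.9, 5.69, -0.468, -18.0 and -21.9. Its 10 strongest genes at the end of animal 1 were Ttr, Mfrp, Sparcl1, Slc4a5, F5, Kcne2, 1500015O10Rik, Kcnj13, Clic6 and Folr1, so 9 of 10 were genes in the plexus order and 1 was Sparcl1. Of the 10 at the other end, 8 were pseudogenes, with Rps23-ps1 first, and the others were the protein-coding genes Fam205a3 and Lenep. The second component took 19.3% and set animals 1 and 3 (13.3 and 14.3) above the rest, with Sparcl1 and Gm10600 at its low end.

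The most even genes came from several basic cell functions. Srp72, a part of the signal recognition particle that guides secreted proteins, had 85.7, 86.6, 86.7, 86.4, 87.5 and 87.0 CPM, a CV of 0.673% where counting alone would give 1.56%. Map7d1, a microtubule protein, followed at 246 ± 1.97 CPM, Vapb, a tether of the endoplasmic reticulum, at 125 ± 1.02 CPM and Ing2, a chromatin reader, at 16.6 ± 0.138 CPM. The RNA helicase Ddx5 had 888, 886, 881, 894, 871 and 878 CPM. RNA-binding proteins among the 20 smallest CVs at 10 CPM or more were Ddx5, Pabpc1, Dazap1, Hnrnpa2b1 and Hnrnpll, sterol genes were Scap and Dhcr7, and kinases were Taok2 and Csnk2a1. They were picked as the smallest of 10310, of which 460 had a CV at or under that of counting alone, and the order among them is not resolved.

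Genes used as references in qPCR were about as even as other genes of their level, and not equally so. The 22 reference genes summed to 8743 ± 274 CPM, none was wide, 13 had a small CV and the median CV was 4.80%. Their median level was 185 CPM. Of all genes from 100 to 1000 CPM, 51.6% had a small CV and the median CV was 4.91%. Ipo8 (62.1 ± 1.02 CPM, CV 1.65%), Top1 (83.8 ± 1.38 CPM, 1.65%), Sdha (331 ± 7.68 CPM, 2.32%) and Eef2 (1006 ± 23.6 CPM, 2.34%) were the most even. The familiar Gapdh and Actb had CVs of 3.77% and 4.21%. Gusb (3.60%), Eif4a2 (3.90%), Canx (4.37%), Hprt (4.80%) and Tbp (4.90%) were also under 5%. Polr2a, Cyc1, Rpl13a, Rplp0, Ywhaz, Ppia, Pgk1 and Tfrc lay between 5.37% and 8.997%. B2m, which is also on the interferon and MHC class I list, was the least even, at 72.1, 51.6, 51.2, 54.3, 54.1 and 63.0 CPM, a CV of 14.3%. Ribosomal protein genes had a median CV of 7.13%: 81 of 84 reached 1 CPM, none was wide, and 7 had a small CV. Their sums ran from 8390 CPM in animal 5 to 10028 in animal 1, and 67 of 81 were highest in animal 1 and 68 lowest in animal 5. All genes with exons under 1.5 kb in total, among them 26 of these 81, had the same 2 extremes as a class, with a median deviation of 0.07 on the log2 scale in animal 1 and -0.06 in animal 5. The part of gene length in the sums was not tested.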

How the data were processed

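Polyadenylated RNA of 6 wild-type hippocampi was read. The authors deposited 1 estimated count per gene and library, made with Salmon 1.3.0 on GRCm38 per the submitters' processing notes, which name no annotation, strand setting or summing to genes. Estimated counts split reads between near-identical copies by a model, which makes the values of copies uncertain. The counts were used unrounded, divided by column sums (42360624 to 50804084) and multiplied by 1000000 (CPM). For each gene the mean, SD, CV, the CV that counting alone gives, and the highest over the lowest animal (floored at 3 counts) were computed over 6 animals with Python 3.11.15. Alternative scalings and dispersions came from edgeR 4.0.16 in R 4.3.3. Symbols were matched to GENCODE gene models of GRCm38 (32940 of 33250), whose exon unions gave lengths and coordinates.

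With 1 group there was no comparison between groups and no test, and SDs describe the spread between these animals, which may be partly technical. The named genes were the 25 highest by CPM and 15 per kilobase, the 20 largest CVs at 1 and at 10 CPM, the 20 smallest at 10 CPM, up to 4 highest, 3 most and 2 least variable members of each list, 10 loadings at each end of 2 components, and all reference genes. Exceptions are marked, and some genes the rule names are not reported here. Members and lists were chosen with earlier results of these data known. The spread measures were tested on simulated data. Alternatives were other scalings, filters, spread measures and each animal left out.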

Additional observations from a re-analysis of the deposited data

Results flagged for a closer look

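Dixon's criterion for 1 animal apart was applied to 223 sets of 6 values: the genes named, the list sums and the library measures. In 20 sets there was such an animal. Of all genes described, 881 of 15553 (5.66%) had one, and chance alone gives about 1 in 20. Many of the 223 were named for their spread or after their values were seen, and lists overlap their own members. The count of 20 is therefore no measure of an excess over chance. Animal 3 was high for the CA1 list (917 CPM against 843 in the next animal) and its leading gene Mpped1 (281 against 240 CPM), and for the growth-cone gene Gap43 (125 against 103 CPM), Snhg11 (2221 against 1947 CPM), Mrpl23 (18.7 against 14.8 CPM), Dmp1 beside Sparcl1 (23.0 against 10.8 CPM) and the copy Rpl14-ps1 (10.3 CPM against 0). Animal 6 was high for the heat shock list (3773 against 3404 CPM), for its chaperones Hspa8 (1845 against 1657 CPM) and Hsph1 (357 against 306 CPM), and for the interferon-induced Ifit1 (3.70 against 2.10 CPM), and low for the clock output factor Tef (363 against 384 CPM). Animal 1 was high for the pericyte list (248 against 232 CPM), the cytoskeletal actin Actb (1167 against 1082 CPM) and the immediate early genes Fos (18.2 against 10.6 CPM) and Egr2 (4.04 against 2.57 CPM). Animal 5 was high for Kif5a (2320 against 2045 CPM) and low for mt-Rnr2 (3089 against 3610 CPM) and Rpl15 (134 against 142 CPM). Animal 4 was high for the copy Gm10925 (64.0 against 9.09 CPM).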

How the results depend on the processing

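No paired analysis was possible because only the wild-type group was described. Of 306 list levels recomputed under other scalings and with each animal left out, 286 moved by less than the SD between animals and 20 moved further, all with mitochondrially encoded genes left out of the column sums. Leaving out a single animal cannot move a mean by as much as that SD, so for those settings the outcome was fixed and only the other scalings are informative. Column sums without mitochondrially encoded genes took the share of the top 10 genes from 7.32% to 3.68%. The count of genes with a 2-fold range, 941, was 204 at a mean of at least 10 CPM, 597 at 1 CPM or more in every animal, 5219 with no filter beyond a count in every animal, and 497 without animals 2 and 3 (chosen after seeing the data). Of the 371 wide genes in the plexus order, 112 had a mean of at least 10 CPM. The first component took 44.8% of variance without the plexus, meningeal, ependymal and blood lists and 54.3% without the genes read in some animals only. With 1 animal left out it took 47.3% to 55.6%. Of the 20 largest CVs, 5 were shared with the 20 largest SDs of log2(CPM + 1), and 12 to 15 with 1 animal left out. Of the 20 smallest, 8 were shared with edgeR's tagwise dispersion and 12 with a minimum of 100 CPM. The cause of these shifts was not tested beyond the filters themselves. The CV of 67 of 181 named genes fell by over 1.5 times without 1 animal, animal 1 for 21 of them and animal 3 for 16. Without animal 3 the CV of Sparcl1 went from 55.2% to 23.8%, and without animal 1 that of Fos from 39.4% to 18.6%. From 1 to 3 CPM the median CV that counting alone gives is 10.98%, which limits what spread can be seen there.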

Other observations

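The imprinted Dlk1-Dio3 domain of chromosome 12, which holds the deleted microRNA cluster of the study's other animals, was read in wild type as follows, with genes chosen after their values were seen. Of the maternally expressed noncoding RNAs, Rian stood at 621 ± 47.2 CPM (SD, n = 6; CV 7.60%) and Mirg at 30.6 ± 2.46 CPM (CV 8.06%), beside Meg3 with a CV of 9.72%, each above the median CV of all genes (7.18%). The paternally expressed coding genes at the 2 ends were lower, and their range was wide. Dlk1, a ligand-like inhibitor of Notch signalling, had 4.39, 12.5, 8.67, 17.99, 5.82 and 9.15 CPM, and Dio3, which inactivates thyroid hormone, had 1.83, 4.98, 4.25, 6.50, 2.16 and 6.40 CPM. Both were lowest in animal 1 and highest in animal 4.

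An immunoglobulin gene also varied: Igkc, the kappa light chain constant region, had 0.779, 0.0708, 0.217, 2.36, 0.390 and 4.31 CPM, a CV of 123%. Length classes of genes differed slightly between animals. Genes with exons under 1.5 kb in all (1183) were 0.07 higher on the log2 scale than their means in animal 1 and 0.06 lower in animal 5, and genes over 8 kb (2722) were 0.05 lower and 0.06 higher.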
